A study of Schizosaccharomyces pombe with 144 samples.

Results

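The transcripts of fission yeast cells (Schizosaccharomyces pombe) 3 h into a synchronised meiosis were set against those of the same strain growing by mitosis. Both are total RNA libraries, 2 of the 10 in a meiotic time course that runs hourly through 8 h, and 2 of the 144 samples in the series. All 5157 genes of the deposited table were compared. The strain, SPB2819, is a diploid of the h-/h- mating type with wild type clr4, the gene of the only histone H3 lysine 9 methyltransferase of this yeast. Its ade6-M210 and ade6-M216 alleles complement each other and keep the diploid stable. Both of its pat1 copies are marked pat1::NatR, and it carries pat1-as(L95A)::HygR, an analog-sensitive kinase allele, also on both homologs. It further holds a lacO array, cen2(D107)::KanR-ura4+-lacO, with his7+::lacI-GFP to make it visible, and the P-type mating gene in lys1::MatPc-Bleo. The culture called mitosis was asynchronous and the 3 h culture was meiotic. These alleles are shared by both, so that the strain is no difference between them. Growth was in YES, a rich medium, at a temperature (25 or 30 °C) set by strain, and the labels do not say which temperature, medium or inhibitor the meiotic culture had. The time course was made to check how synchronously the cultures advanced through meiosis.

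In growing fission yeast the Pat1 kinase holds meiosis back by acting on the RNA-binding protein Mei2 and the transcription factor Ste11. When Pat1 is blocked, cells replicate their DNA once, pass through a long prophase, divide in meiosis I and II and form spores. Prophase in this yeast has linear elements in place of a full synaptonemal complex, telomeres gathered at the spindle pole body in a bouquet, and a nucleus that swings back and forth in the horsetail movement while chromosomes pair and recombine. Each step has its own set of transcripts, several of which growing cells make and then destroy through the RNA-binding protein Mmi1.

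The 3 h library was scaled to an estimated 18177500 reads and the mitosis library to 20794500. RPKM gives the reads of a gene relative to its length and to the reads of its library. For a gene of the median exonic length of 1676 bases, 5 RPKM came to about 152 reads at 3 h (95% Poisson interval 129 to 178) and 174 in mitosis (149 to 202), which cover counting error only. There is 1 library for each stage, so differences have no replicate check and no test was run. A gene is called higher or lower here by size alone: a difference of at least 2 in log2(RPKM + 1), which is 4-fold, in a gene that reached 5 RPKM at 3 h or in mitosis. The added 1 understates the difference of genes at low levels. In RNA from a whole culture, fewer cells with a transcript and less of it in each cell cannot be told apart.

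By this rule 394 genes were higher at 3 h (7.64% of the 5157) and 85 were lower (1.65%). The higher genes also reached further: 169 of them differed by 3 or more on the log2 scale and 19 by 6 or more, while 10 of the lower genes reached 3 and none reached 6. The median gene stood 0.44 above its mitotic level as deposited. After median-ratio rescaling, which sets the typical gene equal across the 10 libraries, it stood 0.06 above, and 277 genes (5.37%) were higher and 176 (3.41%) lower. Genes higher at 3 h made up 82.3% of the calls as deposited and 61.1% after rescaling. All 277 were among the 394, and the 85 were all among the 176. This nesting is fixed by the scale factors, 1.17 for 3 h and 0.879 for mitosis, since dividing by them raised no difference. At the edge of the rule, 35 higher genes lay inside the limit by under 0.1, and 46 genes missed it by under 0.1. On the lower side 21 genes lay inside and 20 outside by as little.

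**Figure D1:**
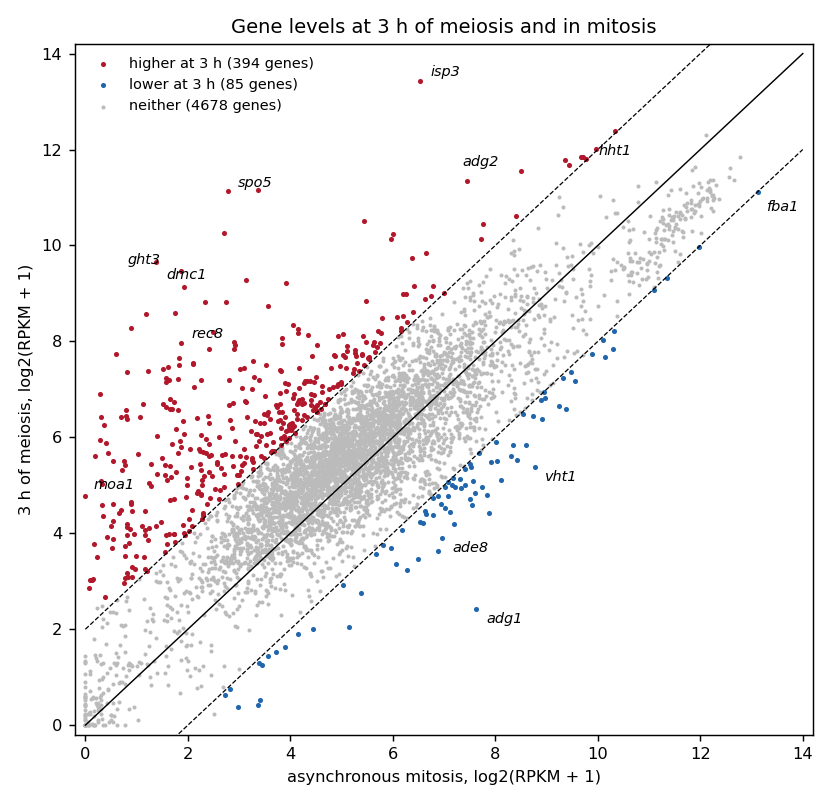
Level of each of the 5157 genes at 3 h of meiosis (vertical axis) and in asynchronous mitosis (horizontal axis), both as log2(RPKM + 1), 1 library each. The solid line marks equal levels and the dashed lines 4-fold, and the 394 higher genes spread further from the diagonal than the 85 lower ones.

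Many of the higher genes were near silence in growing cells. Of the 394, 57 were under 1 RPKM in mitosis and 114 more lay between 1 and 5. Their median level was 83.3 RPKM at 3 h, against 7.12 RPKM in mitosis, and together they held 14.4% of the summed RPKM at 3 h and 1.53% in mitosis. The lower genes were mostly well expressed in both: their median was 29.9 RPKM at 3 h and 159 RPKM in mitosis, and 5 of the 85 were under 1 RPKM at 3 h. The highest gene at 3 h was isp3, which encodes the major protein of the outer spore coat, with 11031 RPKM at 3 h and 91.2 RPKM in mitosis. The highest gene in mitosis was fba1, the glycolytic aldolase, with 2224 RPKM at 3 h and 8933 RPKM in mitosis. Of the 20 highest genes of each library, 7 were in both.

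Gene structure also differed between higher and lower genes. Among genes with an annotated coding sequence, 168 of the 393 higher genes had an intron in it (42.7%), 19 of the 85 lower genes (22.4%) and 2398 of all 5129 (46.8%). Median exonic lengths were close, at 1571 bases for higher, 1441 for lower and 1675 for all genes with a coding sequence.

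The stage markers showed S phase and prophase transcripts at 3 h, and later ones as well. The histone H3 gene hht1 had 3549 RPKM at 3 h and 870 RPKM in mitosis, and cdc18, which loads the replicative helicase at origins, had 138 RPKM at 3 h and 29.6 RPKM in mitosis. The G1/S cyclin gene cig2 had 118 RPKM at 3 h and 15.7 RPKM in mitosis. Of the other S phase markers, htb1 was called higher at 2.06, while hta1 (1.75) and cdc22 (1.45) missed the limit. After rescaling cig2 alone of the S phase markers passed, at 2.44, with hht1 at 1.62, htb1 at 1.65 and cdc18 at 1.78. Prophase markers were further apart: rec8, the meiotic cohesin kleisin, had 248 RPKM at 3 h and 2.67 RPKM in mitosis. The recombinase gene dmc1 had 804 RPKM at 3 h and 1.60 RPKM in mitosis. All 7 markers of divisions and spores were also above the limit as deposited, from bgs2, a spore wall glucan synthase (36.1 RPKM at 3 h and 6.75 RPKM in mitosis), to isp3. After rescaling bgs2 fell short, at 1.88. Of the 4 mating markers, mfm1, mfm2 and mfm3, which encode the M-factor pheromone, were higher at 3 h, and map3, the M-factor receptor, missed the limit at 1.96. Rescaling also took mfm2 under the limit, to 1.75. The mitotic cyclin gene cdc13 was at 151 RPKM at 3 h and 107 RPKM in mitosis, a difference of 0.50. The 3 h library thus held S phase, prophase, later and mating transcripts side by side.

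**Figure D2:**
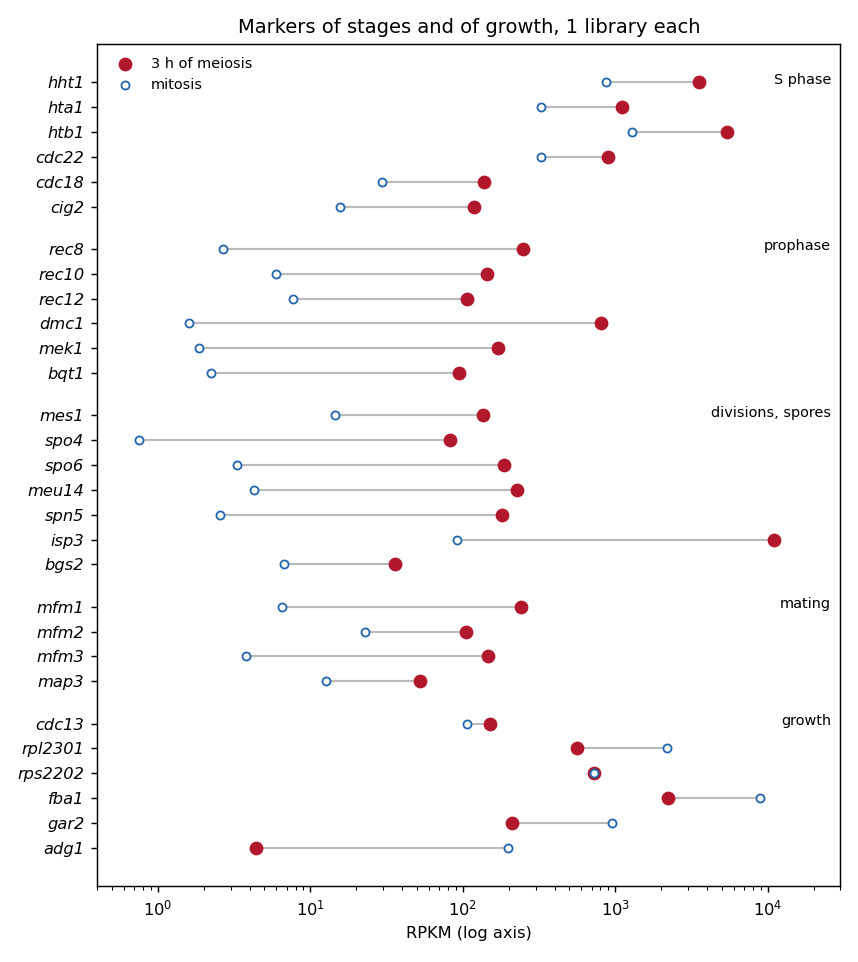
RPKM of marker genes on a log axis, with filled red points for 3 h of meiosis and open blue points for mitosis, 1 library each. The S phase, prophase, late and mating markers lie to the right at 3 h, with dmc1 at 804 RPKM at 3 h and 1.60 RPKM in mitosis, and of the growth genes shown adg1 lies furthest to the left, at 4.39 RPKM at 3 h and 197 RPKM in mitosis.

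Genes of the switch into meiosis came first in the order of the programme. Of 11 measured genes of this list, 6 were higher and none lower (4 and none after rescaling). The list's median difference was 2.24, beside 0.44 for all genes. For this and every list below, the shares over all genes are 7.64% higher and 1.65% lower, or 5.37% and 3.41% after rescaling. Mei2, the RNA-binding protein on which entry depends, was at 597 RPKM at 3 h and 14.1 RPKM in mitosis, a difference of 5.31. Ste11, which turns on mating and meiotic genes, was at 55.2 RPKM at 3 h and 9.01 RPKM in mitosis. The level of ste11 was past its height by then: 0 h gave 207 RPKM, 2 h gave 83.0 and 4 h gave 58.4. Mei3, the natural inhibitor of Pat1, reached 7.22 RPKM at 3 h, against 0.103 RPKM in mitosis. The transcript of pat1 itself was higher, at 72.6 RPKM at 3 h and 13.0 RPKM in mitosis, and comes from a strain whose pat1 is the analog-sensitive copy, so that it is no check of the kinase. The genes rcd1 and nrd1 were within 0.25, and cpc2, the ribosomal scaffold protein that binds Pat1, had a difference of -1.41.

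Of 7 genes for MBF, the factor that drives G1/S transcription, and its regulators, 2 were higher and none lower, against 1 and 1 after rescaling. Res2 and its activator Rep1 are the forms known for their role in premeiotic S, and Res1 and Rep2 are their counterparts in growth. Res2 was at 82.7 RPKM at 3 h and 11.2 RPKM in mitosis, and rep1 at 25.6 RPKM at 3 h and 4.43 RPKM in mitosis, both called higher, though rep1 not after rescaling (1.92). Res1 was at 8.64 RPKM at 3 h and 26.2 RPKM in mitosis, and rep2 at 14.8 RPKM at 3 h and 50.6 RPKM in mitosis. Neither difference passed the limit as deposited, at -1.50 and -1.71, and that of rep2 did after rescaling, at -2.10. The shared subunit gene cdc10 and the corepressor genes yox1 and nrm1 were 1.41, 1.64 and 1.70 above mitosis, under the limit.

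Of 18 genes of the kind MBF drives in S phase, 6 were higher at 3 h and none lower (3 and none after rescaling), with a median of 1.41. Among them were mik1, cig2, cdt2, ams2 and cdc18. The largest difference was that of mik1, which encodes a kinase that restrains Cdc2, at 305 RPKM at 3 h and 16.7 RPKM in mitosis. Cdt2, the adaptor of a ubiquitin ligase active in S phase, was at 239 RPKM at 3 h and 33.2 RPKM in mitosis. Ams2, a GATA factor for histone genes, was at 127 RPKM at 3 h and 25.9 RPKM in mitosis. The ribonucleotide reductase genes parted: cdc22, the large subunit, had a difference of 1.45 and suc22, the small subunit, one of -1.29. This list was not at its height at 3 h, since 11 of its 18 genes had their highest meiotic value at 0 h and 5 at 3 h. Cdc22 began with 1861 RPKM (0 h), passed through 751 (2 h) and 893 (3 h) and ended this stretch with 146 (4 h).

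The replication machinery itself differed little. None of 32 fork genes and none of 9 genes of nucleotide supply were called in either direction, and 1 of 24 licensing and firing genes, cdc18, was higher, though not after rescaling (1.78). The fork list had a median of 0.57, close to that of all genes. The sliding clamp gene pcn1 was at 226 RPKM at 3 h and 213 RPKM in mitosis. Mcm2, a helicase subunit, was at 30.0 RPKM at 3 h and 29.3 RPKM in mitosis. After rescaling ura3, which acts in pyrimidine synthesis, was called lower, at -2.09.

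Histone genes were among the most abundant transcripts at 3 h. Of 11 measured, 8 were higher and none lower by the rule, with a median of 2.06, and 3 stayed above the limit after rescaling (hhf2, cnp1 and hta2). The other three lay between 1.75 and 1.95. The list held 4.22% of the summed RPKM at 3 h and 0.801% in mitosis. The H2B gene htb1 was at 5369 RPKM at 3 h and 1283 RPKM in mitosis. The H4 gene hhf2 had the largest difference of the list, 3.05, with 3018 RPKM at 3 h and 362 RPKM in mitosis. Cnp1, the histone H3 of centromeres, was at 53.0 RPKM at 3 h and 7.52 RPKM in mitosis. In 10 of 11 histone genes the 3 h library was the highest of the 9 meiotic libraries, with or without rescaling. For hht1 the neighbouring libraries gave 448 RPKM (0 h), 1157 RPKM (2 h) and 490 RPKM (4 h), so that its excess over mitosis was seen at 2 and 3 h and not at 4 h. The genes for H3 and for H4 are near-identical copies, and the split of reads between copies is uncertain. Among 17 genes of histone chaperones and histone gene control, ams2 alone was higher, and none passed after rescaling.

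Cohesin, the complex that holds sister chromatids together, has subunits of its own in meiosis. Of 16 genes of cohesin and its regulators, 8 were higher and none lower (5 and none after rescaling), with a median of 1.86. Rec11, the partner of Rec8 along chromosome arms, was at 151 RPKM at 3 h and 1.98 RPKM in mitosis. Moa1, which orients sister kinetochores to one pole in meiosis I, was at 26.4 RPKM at 3 h and listed at 0 in mitosis. The core subunits psm1 and psm3, which both forms of the complex share, were higher too, with 78.0 and 119 RPKM at 3 h and 13.6 and 20.2 RPKM in mitosis. The mitotic kleisin gene rad21 was at 28.9 RPKM at 3 h and 27.6 RPKM in mitosis, and its partner gene psc3 at 14.5 RPKM at 3 h and 6.42 RPKM in mitosis.

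All 7 genes of linear elements were higher, before and after rescaling, with a median difference of 5.91. The median over mitosis was already 5.65 at 0 h and 5.48 at 2 h. Hop1, a chromosome axis protein, was at 312 RPKM at 3 h and 0.851 RPKM in mitosis. Rec10, the main component, was at 145 RPKM at 3 h and 5.97 RPKM in mitosis, the smallest difference of the list at 4.38. Rec27, Rec25 and Mug20 mark the sites of breaks on linear elements, and their transcripts were higher by 6.54, 4.93 and 4.94. Mek1, the checkpoint kinase of meiotic recombination, was at 171 RPKM at 3 h and 1.87 RPKM in mitosis. In 6 of the 7 the 3 h library was the highest meiotic one.

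Of 10 genes for making double-strand breaks, 7 were higher and none lower in both scalings. The list's median was 3.42 at 3 h, beside 2.98 at 0 h and 3.18 at 2 h. Rec12, the Spo11 homolog that cuts the DNA, was at 107 RPKM at 3 h and 7.67 RPKM in mitosis. Rec15, a partner of the breaking machinery, was at 381 RPKM at 3 h and 1.27 RPKM in mitosis. Ctp1, which also serves break repair in growing cells, was higher by 3.35, with 455 RPKM at 3 h and 43.6 RPKM in mitosis. The genes rec14, nbs1 and rad50 were not called, at 1.28, 0.88 and 0.34. Mde2, which joins break proteins into 1 complex, was at 75.3 RPKM at 3 h and 0.288 RPKM in mitosis, and went on to 225 RPKM at 4 h.

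Strand exchange and crossover genes had 10 of 21 higher and none lower (9 and none after rescaling). The list's median was 1.70 at 3 h, beside 1.74 at 0 h and 1.90 at 2 h. Dmc1, the meiotic recombinase, had the largest difference of this list, 8.28. Meu13 and Mcp7 form the Hop2-Mnd1 complex that helps Dmc1, and were at 564 and 77.8 RPKM at 3 h and at 2.82 and 4.32 RPKM in mitosis. The Rad52 paralog gene rti1 was at 384 RPKM at 3 h and 2.35 RPKM in mitosis, while rad52 was at 18.7 RPKM at 3 h and 16.2 RPKM in mitosis. Mus81 and Eme1, which cut crossover intermediates, were higher by 2.85 and 2.75. The mismatch repair gene pms1 was within 0.40 of mitosis.

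Of 15 genes of the bouquet and of telomeres, 3 were higher and none lower (2 and none after rescaling). Bqt1 and Bqt2, which tie telomeres to the spindle pole body, were at 94.8 and 47.9 RPKM at 3 h and at 2.24 and 0.135 RPKM in mitosis. Kms1, a nuclear envelope linker, was the third called, at 56.2 RPKM at 3 h and 10.5 RPKM in mitosis, and fell short after rescaling at 1.92. Bqt4, which anchors telomeres in growing cells too, was 1.46 above, and taz1, the telomere repeat binder, 0.14.

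Horsetail movement uses dynein, and 5 of 9 genes were higher in both scalings. The list's median was 3.47 at 3 h, beside 3.41 at 0 h and 3.41 at 2 h. Mcp5, which anchors dynein at the cortex, was at 110 RPKM at 3 h and 2.12 RPKM in mitosis. The dynactin genes arp1 and ssm4 were at 148 and 51.4 RPKM at 3 h and at 2.49 and 3.74 RPKM in mitosis. Mcp6, which organises microtubules at the spindle pole body, had the largest difference of the list, 5.59. The motor gene dhc1 itself was low in both, at 5.17 RPKM at 3 h and 1.22 RPKM in mitosis, and was not called. Outside the lists dic1, a meiotic dynein intermediate chain, was at 79.5 RPKM at 3 h and 2.76 RPKM in mitosis.

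All 14 genes known as targets of Mmi1-dependent elimination were higher at 3 h, in both scalings, with a median of 4.73. The list's median over mitosis was 4.88 at 0 h and 4.69 at 2 h, so this excess was not particular to 3 h. The list is of transcripts known to be destroyed in growing cells, so its direction is not independent of what was asked. Differences of the 14 genes ran from 3.47 for ssm4 to 8.34 for spo5. Spo5, an RNA-binding protein of the meiotic divisions, was at 2232 RPKM at 3 h and 5.87 RPKM in mitosis. Several of the 14 genes, such as rec8, mek1 and meu13, are also members of lists above. Of 13 genes for the elimination machinery, none was called. Mmi1 was at 14.4 RPKM at 3 h and 27.8 RPKM in mitosis, a difference of -0.90, the lowest of its list. The zinc finger gene red5 and the scaffold gene red1 were 0.80 above mitosis each.

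**Figure D3:**
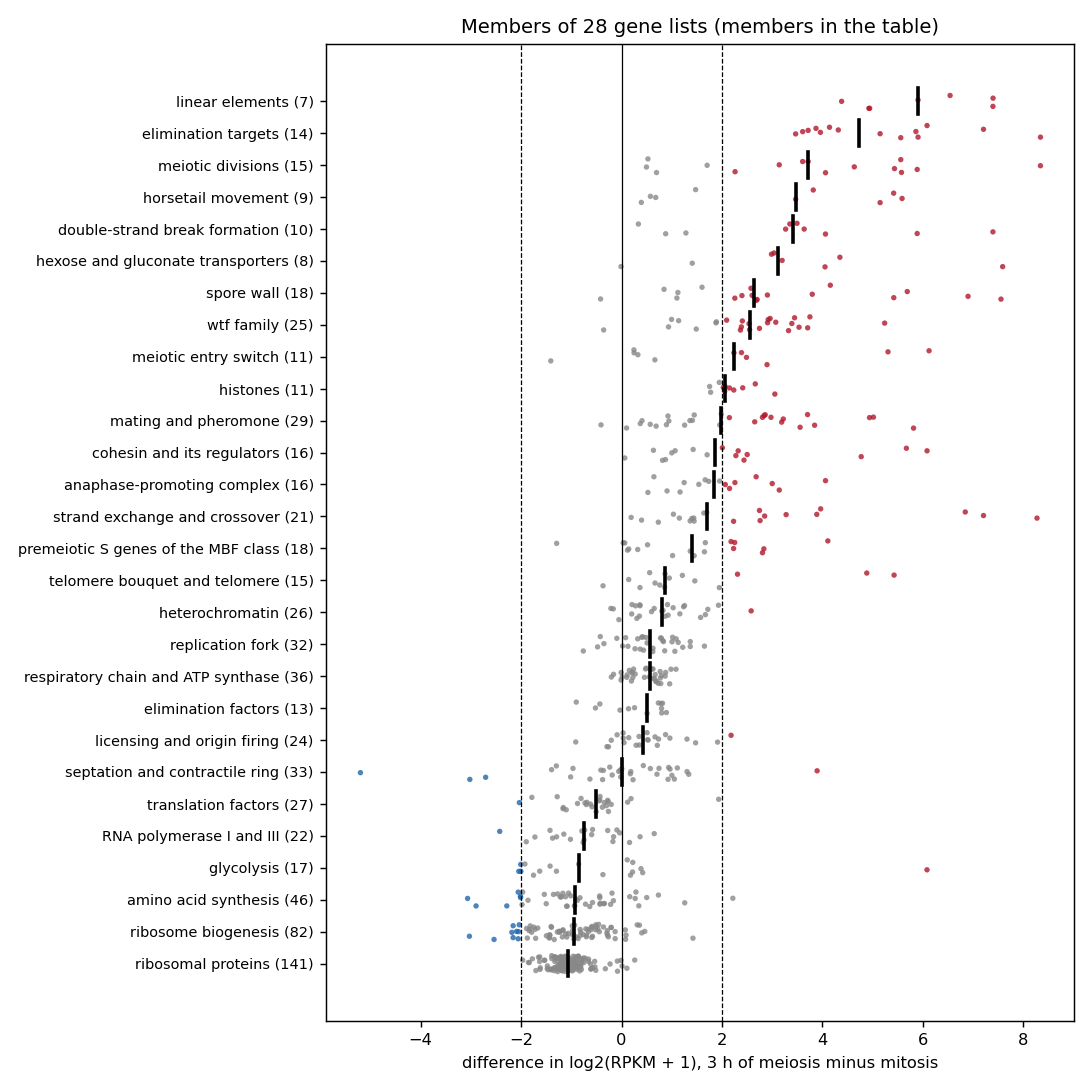
Difference in log2(RPKM + 1), 3 h of meiosis minus mitosis, for the measured members of 28 gene lists, with the number of members after each name. Each point is a gene (red higher, blue lower, grey neither), black bars are list medians, dashed lines mark 4-fold, and lists run from the linear elements at 5.91 down to the ribosomal proteins at -1.06.

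Mating genes were still above mitosis at 3 h, and below their level at the start of meiosis. Of 29, 14 were higher and none lower (13 and none after rescaling), with a median of 1.99. The M-factor gene mfm1 was at 243 RPKM at 3 h and 6.52 RPKM in mitosis, and had been at 9074 RPKM at 0 h. Map2, which encodes the P-factor pheromone, was at 200 RPKM at 3 h and 2.56 RPKM in mitosis, and had been at 3503 RPKM at 0 h. Both pheromones were thus transcribed in this h-/h- strain, which also carries the P-type cassette gene. In 23 of the 29 genes the 0 h library was the highest of the meiotic ones. Genes of the shared signalling path were not called, such as byr1, the MAP kinase kinase, with 73.8 RPKM at 3 h and 55.4 RPKM in mitosis. Its MAP kinase gene spk1 was, at 92.0 RPKM at 3 h and 10.8 RPKM in mitosis.

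Transcripts of the divisions were already above mitosis at 3 h. Of 15 genes, 11 were higher and none lower (10 and none after rescaling), with a median of 3.72. Mei4, the forkhead factor that turns on this set, was at 106 RPKM at 3 h and 7.77 RPKM in mitosis. Mes1, which restrains the anaphase-promoting complex so that meiosis II can follow, was at 136 RPKM at 3 h and 14.6 RPKM in mitosis. The kinase subunits spo4 and spo6 were at 82.4 and 185 RPKM at 3 h and at 0.747 and 3.30 RPKM in mitosis. Most of this list rose further with time: 9 of its 15 genes were highest at 6 h, and spo4 stood at 287 RPKM at 4 h. Cdc25, cut2, slp1 and cdc13, which act in mitosis as well, were not called.

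The anaphase-promoting complex, a ubiquitin ligase of anaphase, showed the same direction in its core. Of 16 genes of the complex and its regulators, 7 were higher and none lower, with a median of 1.85 (4 and none after rescaling, median 1.45). Mfr1, the meiotic activator, was at 23.4 RPKM at 3 h and 0.457 RPKM in mitosis. The core subunit genes apc13, cut4, apc11 and nuc2 were higher by 3.00, 2.26, 2.15 and 2.07. The mitotic activator gene slp1 was at 91.9 RPKM at 3 h and 63.6 RPKM in mitosis. In 12 of the 16 the 6 h library was the highest.

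Spore formation was similar. Of 16 forespore membrane genes 7 were higher and none lower (6 and none after rescaling), and of 18 spore wall genes 13 and none (11 and none). The meiotic septin genes spn5, spn6 and spn7, which shape the forespore membrane, were at 181, 102 and 129 RPKM at 3 h and at 2.57, 1.18 and 7.27 RPKM in mitosis. Meu14, which forms the ring at the membrane's leading edge, was at 227 RPKM at 3 h and 4.29 RPKM in mitosis. Meu10, a wall protein held by a lipid anchor, was at 1221 RPKM at 3 h and 5.48 RPKM in mitosis. The actin cable gene cdc8 and the spindle pole body gene spo15 were within 0.13 of mitosis. The isp3 transcript was far above mitosis from the start, with 6766 RPKM at 0 h, and reached 28358 RPKM at 4 h.

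The wtf family includes selfish drivers that kill spores which do not inherit them. Of its 25 genes, taken by name alone, 18 were higher and none lower (16 and none after rescaling). Wtf2, with the largest difference of the list, is annotated as a pseudogene. Wtf4 was at 81.1 RPKM at 3 h and 6.08 RPKM in mitosis. Wtf13 was at 57.2 RPKM at 3 h and 4.34 RPKM in mitosis. These levels were early ones, since 23 of the 25 had their highest value at 8 h. The family's members are near copies of each other, so that their single values are uncertain. Wtf14 was the 1 member below its mitotic level, at 13.3 RPKM at 3 h and 17.3 RPKM in mitosis.

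The genes around Cdc2, the cyclin-dependent kinase, were called where they are meiotic or of S phase. Of 21, 4 were higher and none lower in both scalings: crs1, mik1, rem1 and cig2. Crs1 and Rem1 are meiotic cyclins, and were at 145 and 18.0 RPKM at 3 h and at 2.08 and 0.449 RPKM in mitosis. The kinase gene cdc2 was at 135 RPKM at 3 h and 53.2 RPKM in mitosis, a difference of 1.33. The inhibitory kinase gene wee1 was 0.28 above mitosis.

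Among 14 transcription factors of the forkhead family and of late stages, 7 were higher and 1 lower (4 and 1 after rescaling). Atf21, which acts in spore formation, was at 41.7 RPKM at 3 h and 0.717 RPKM in mitosis. Cuf2, a copper-related factor of meiosis, was at 19.6 RPKM at 3 h and 0.271 RPKM in mitosis.

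Heterochromatin genes, the topic of the series, had few calls. Their median was 0.81, beside 0.44 for all genes, and 0.44 after rescaling, beside 0.06. As deposited 23 lay above mitosis and 3 below, and after rescaling 16 and 10. Of 26, 1 was higher in both scalings, arb2, an Argonaute-binding protein of the RNA interference path, at 111 RPKM at 3 h and 17.7 RPKM in mitosis. The methyltransferase gene clr4 was at 16.4 RPKM at 3 h and 6.79 RPKM in mitosis, a difference of 1.16. Swi6, the HP1 protein that reads its mark, was at 98.9 RPKM at 3 h and 85.8 RPKM in mitosis. Its difference was 0.20 as deposited and -0.20 after rescaling.

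Of 43 kinetochore genes 3 were higher (cnp1, fta7 and ask1) and none lower, and cnp1 alone remained after rescaling. The 3 are 6.98% of the list, near the 7.64% over all genes. The list's median was 0.89, with 37 genes above mitosis and 6 below, and 0.50 after rescaling, with 34 and 9. Cnp3, the CENP-C protein, was at 66.7 RPKM at 3 h and 69.1 RPKM in mitosis.

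Transcripts for making ribosomes stood lower as a group, few of them by 4-fold. None of 141 ribosomal protein genes was called as deposited, but all except 3 lay below mitosis and the median difference was -1.06. After rescaling 10 were called lower, and the median was -1.47. Their share of the summed RPKM was 25.6% at 3 h and 45.1% in mitosis, and the part of this shift in the higher values of other genes was not tested. Rpl2301 had the largest fall, at 558 RPKM at 3 h and 2187 RPKM in mitosis, and rps2202 was level, at 723 RPKM at 3 h and 728 RPKM in mitosis. The name pattern behind this list also took in rpp40 and rpp21, subunits of RNase P, which were 2 of the 3 above mitosis. Many ribosomal proteins have paired genes of near-identical sequence. At 0 h the list's median was lower still, at -2.41, and at 2 h it was -0.95.

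Ribosome biogenesis had 9 of 82 genes lower and none higher (19 and none after rescaling), with a median of -0.96. Dbp3, an RNA helicase of rRNA processing, was at 26.9 RPKM at 3 h and 227 RPKM in mitosis. Gar2, the nucleolin of this yeast, was at 212 RPKM at 3 h and 950 RPKM in mitosis. RNA polymerases I and III had 1 of 22 lower, the shared subunit gene rpc40, at 43.8 RPKM at 3 h and 240 RPKM in mitosis, and 3 after rescaling. Among 27 translation factor genes tif51, which encodes eIF5A, was the 1 called, at -2.04, with 2 lower after rescaling. The elongation factor gene tef103 was among the highest in both libraries, at 5072 RPKM at 3 h and 4450 RPKM in mitosis. Outside the lists, several of the largest falls were again of ribosome assembly: rrb1 (-3.01), mrt4 (-2.52), nob1 (-2.50) and arx1 (-2.40).

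In sugar metabolism, 3 of 17 genes of the glycolysis list were lower and 1 higher (6 and 1 after rescaling), and 7 of the 17 lay above mitosis. The lower ones were pdc101, a pyruvate decarboxylase, tdh1, a glyceraldehyde phosphate dehydrogenase, and fba1, at -2.05, -2.01 and -2.01, all close to the limit. The higher one was fbp1, the gluconeogenic phosphatase that glucose represses, at 451 RPKM at 3 h and 5.66 RPKM in mitosis. Of 8 transporter genes for hexoses and gluconate, 6 were higher and none lower in both scalings. Ght3, a gluconate transporter, was at 702 RPKM at 3 h and 2.65 RPKM in mitosis. Ght5, the main high-affinity glucose transporter, was at 916 RPKM at 3 h and 98.9 RPKM in mitosis, while ght2 was level at 59.5 RPKM at 3 h and 59.9 RPKM in mitosis. Outside the lists zwf2, a glucose-6-phosphate dehydrogenase, had the largest rise, 6.49, with 451 RPKM at 3 h and 4.01 RPKM in mitosis. Gto1, an alpha-glucosidase by its annotation, was at 289 RPKM at 3 h and 16.7 RPKM in mitosis. The glycolysis list held 2.09% of the summed RPKM at 3 h and 4.84% in mitosis.

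Genes for building amino acids and purines were lower in part, with 6 of 46 lower and none higher (9 and none after rescaling) and a median of -0.92. The adenine pathway gene ade8, adenylosuccinate lyase, was at 13.95 RPKM at 3 h and 124 RPKM in mitosis. Ade10, which closes the purine ring, was at 45.2 RPKM at 3 h and 343 RPKM in mitosis. The others were trp3, ilv1, arg11 and lys12, for tryptophan, branched-chain amino acids, arginine and lysine. The list's name pattern also caught trp663 and trp1322, ion channel genes of the TRP type. Of 10 sulfur and methionine genes met9, a methylenetetrahydrofolate reductase, was lower at -2.30, and 3 were after rescaling. Uptake genes went both ways, with 3 of 19 higher and 3 lower (2 and 5 after rescaling). Vht1, the biotin transporter, was at 41.0 RPKM at 3 h and 435 RPKM in mitosis. Cat1, a transporter of basic amino acids, was at 3.15 RPKM at 3 h and 34.2 RPKM in mitosis. Pho1, the acid phosphatase made when phosphate is short, was at 1201 RPKM at 3 h and 62.9 RPKM in mitosis, and at 2611 RPKM at 2 h.

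Transcripts of cell separation, which follows mitotic division, held the largest fall. Adg1 was at 4.39 RPKM at 3 h and 197 RPKM in mitosis, a difference of -5.20. Eng1, the glucanase that cuts the septum, was at 10.1 RPKM at 3 h and 89.0 RPKM in mitosis. Of 33 genes of septation and the contractile ring, 3 were lower and 1 higher in both scalings. The higher one was adg2, at 2607 RPKM at 3 h and 174 RPKM in mitosis. The contractile ring gene imp2 was at 33.4 RPKM at 3 h and 33.8 RPKM in mitosis, and the glucan synthase gene bgs4 at 60.2 RPKM at 3 h and 60.0 RPKM in mitosis.

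Other upkeep genes showed few calls. None of 36 respiratory chain and ATP synthase genes, 34 proteasome genes or 18 iron genes was called, with medians of 0.56, 0.62 and 0.65. Of 27 stress genes 5 were higher and none lower (5 and 1 after rescaling). Zym1, a metallothionein, was at 1129 RPKM at 3 h and 61.8 RPKM in mitosis. Hsp16, a small heat shock protein, was at 207 RPKM at 3 h and 28.2 RPKM in mitosis, and had a single high value of 6440 RPKM at 2 h. Hsp104 was at 79.3 RPKM at 3 h and 69.0 RPKM in mitosis.

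Genes named for meiosis by earlier surveys (mug, meu, mcp and mde names) had 75 of 134 measured members higher and none lower, against 67 and none after rescaling, with a median of 2.27. The list was named from expression in meiosis, so its direction is not independent of what was asked. Mug14, an adducin-like protein, was at 2291 RPKM at 3 h and 9.35 RPKM in mitosis. Meu26 was at 211 RPKM at 3 h and 0.510 RPKM in mitosis. The gene nearest to its mitotic level was mug115, at 14.8 RPKM at 3 h and 15.3 RPKM in mitosis. The gene mug64 was below, at 114 RPKM at 3 h and 247 RPKM in mitosis, a difference of -1.11. The mcp pattern also took in mcp60, a mitochondrial chaperonin, which had the lowest difference of the list, -1.13.

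The lists took in 1053 of the 5157 genes and were chosen with earlier results of these data known. They held 212 of the 394 higher genes and 27 of the 85 lower ones. Of the rest, crp79, a poly(A)-binding protein of meiosis, was at 166 RPKM at 3 h and 1.33 RPKM in mitosis. Cbf12, a DNA-binding factor of the Su(H) family, was at 229 RPKM at 3 h and 6.45 RPKM in mitosis. Rho5, a small GTPase, was at 171 RPKM at 3 h and 7.10 RPKM in mitosis. The other named rises outside the lists were imt2, a mannosyltransferase (3.87), eta2, a Myb-type factor (3.80), cid11, an RNA-tailing enzyme (3.72), tht2, a karyogamy protein (3.51), mpf1, a meiotic PUF protein (3.50), pom34, a nucleoporin (3.36), and meu1-1, cmc4 and lsd90 (4.22, 3.80 and 3.76). Among falls, adh4, an alcohol dehydrogenase, was at 11.4 RPKM at 3 h and 117 RPKM in mitosis. Aru1, an arginase, was at 95.1 RPKM at 3 h and 668 RPKM in mitosis. Hem13, of heme synthesis, was at 47.8 RPKM at 3 h and 318 RPKM in mitosis. Falls of -2.99 to -2.37 were also listed for hpt1, pfl9, fkbp39, mae2, oga1, ofd1, ura5 and snz1, genes of purine salvage, the cell surface, protein folding, malate use, and oxygen, pyrimidine and vitamin metabolism among them.

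Where the 3 h levels stood within meiosis differed between groups. Of the 394 higher genes 84 (21.3%) had their highest meiotic value at 3 h. The first library (0 h) was highest for 61 of them, the 6 h library for 63 and the last (8 h) for 63. After rescaling the 6 h library was highest for 92, the largest number, with 75 highest at 3 h, 40 in the first and 50 in the last. Of all genes, 10.8% were highest at 3 h. The choice of these genes used the 3 h value, so the count at 3 h is a description. None of the 85 lower genes was highest at 3 h, which follows largely from their choice by a low 3 h value. Of them 32 were highest at 0 h and 24 at 8 h, or 23 and 37 after rescaling. The linear element list had a median of 115 RPKM (0 h), then 163 (3 h) and 15.9 (5 h), whereas the spore wall list climbed to 743 RPKM at 7 h and stood at 167 at 3 h.

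**Figure D4:**
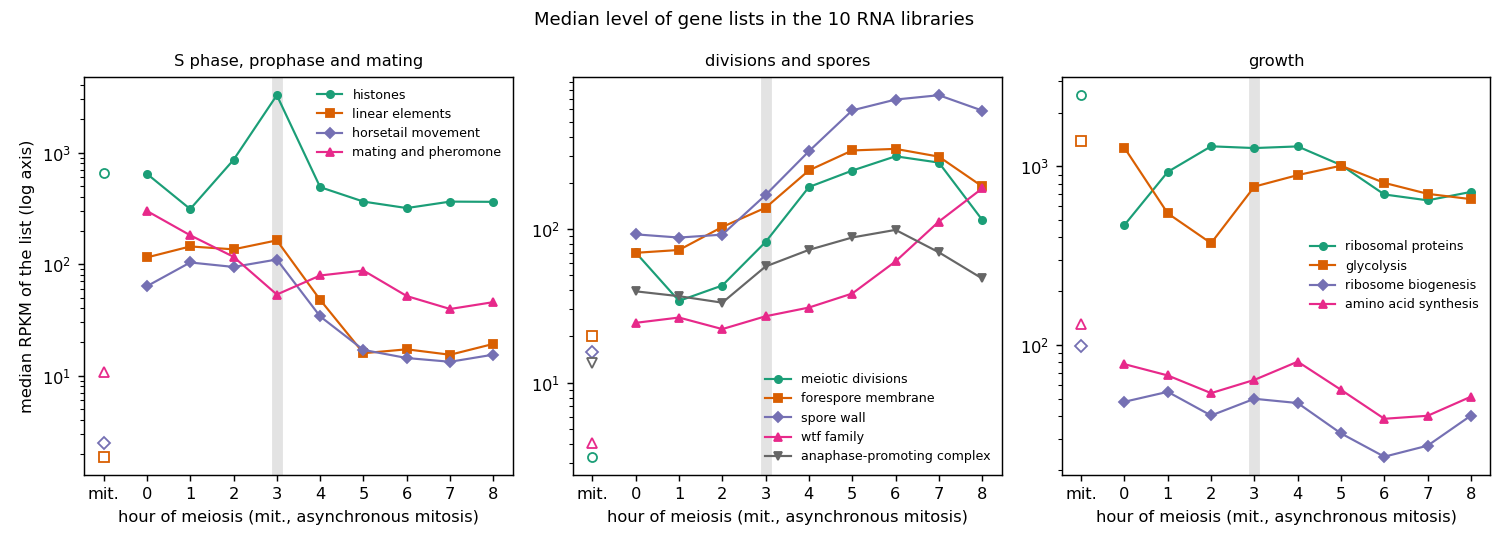
Median RPKM (log axis) of gene lists in asynchronous mitosis (open symbols) and at 0 to 8 h of meiosis (filled, joined), 1 library each, with 3 h shaded. Histones stand highest at 3 h, with a median of 3268 RPKM at 3 h and 660 RPKM in mitosis, division and spore lists are still climbing, and ribosomal proteins are below mitosis at every hour.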

How the data were processed

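Per the labels' protocols, total RNA was extracted with the MasterPure kit, and libraries were made with the TruSeq Stranded Total RNA kit. Per the file headers, the authors gave each gene 1 RPKM value in each library. For all assays of the series together, the submitters' processing notes list STAR 2.7.3a, bedtools 2.26.0 and 2.27.1, SAMtools 1.9, Bowtie 1.2.2, cutadapt 1.18 and bcl2fastq 1.17, with builds mm10 and ASM294v2. How reads were counted, by strand or not and with several matches or not, and with which gene lengths, is not given in the sources used here. Near-identical, overlapping and antisense genes are therefore uncertain. Deposited columns named TPM, per the file headers, were treated as a score because they do not sum to a common total, and were used for nothing.

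Differences are log2(RPKM + 1) at 3 h minus mitosis, computed in Python 3.11.15 with pandas 2.3.3, NumPy 2.4.6 and SciPy 1.17.1, and drawn with matplotlib 3.10.9. Values were used as deposited and after median-ratio rescaling over the 10 libraries. Genes passed with 5 RPKM in at least 1 of both libraries (4935 of 5157), and list medians and counts are over members with 1 RPKM in at least 1 of them. Depth was estimated from the steps of the lowest values, with exonic lengths of another build (ASM294v3, RefSeq), which also gave names, products, introns and gene order. A symbol matched 3636 of the table's genes, a systematic ID 1392 and a synonym 102, leaving 27 unmatched.

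The 41 gene lists and the members named were chosen with earlier results of these data known, and some lists share members. Named were, for each list, the 5 largest differences and the 2 smallest, a few set stage genes, and outside the lists the 15 largest rises and 15 largest falls with a symbol and 5 each way without. Further members named, the hour of the highest level, gene structure, genes near 0 in mitosis and chromosome ends were chosen after the values were seen. Promoter motifs were not searched, and a few genes are not reported here.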

Additional observations from a re-analysis of the deposited data

How the results depend on the processing

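The count of higher genes stayed within 1.5 times of 394 under every alternative except the fold limit: 169 at 8-fold and 1339 at 2-fold. A similar count did not mean the same genes. Of the 394, 280 were also higher with 2 h in place of 3 h, among 400, and 299 with 4 h, among 424. Of the 85 lower genes, 76 were also lower with 2 h and 44 with 4 h. The count of lower genes, 85 as deposited, was 176 after rescaling over 10 libraries, 198 after rescaling between both, 10 at 8-fold, 473 at 2-fold and 181 with 2 h in place of 3 h. Of 165 called genes named, 111 of 125 higher and 40 of 40 lower ones stayed called after rescaling over 10 libraries. Rescaling raised no difference, so it could not take away a lower call or add a higher one. With 2 h in place of 3 h, 108 of the 125 and 39 of the 40 stayed called. With 4 h the numbers were 103 and 27. Among the called genes named, few changed sign with the hour. Hht3 was -0.28 at 2 h, and at 4 h cdc18 was -0.78, hht1 -0.83, htb1 -0.51, hhf1 -0.95 and hta2 -0.38. Called genes that are not named were not checked for this. Uncalled hta1 and cdc22 were -1.21 and -1.16 at 4 h, and at 4 h the list medians were -0.38 for histones and -0.21 for S phase genes of the MBF class. The cause was not tested. No paired analysis was possible because each stage has 1 library, and none could be left out. At 5 RPKM a gene of median length had about 152 reads at 3 h and 174 in mitosis. Depth therefore bears more on short genes and on values near 0.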

Other observations

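A set of genes was nearly silent in growing cells and expressed at 3 h. At 20 RPKM or more at 3 h and under 1 RPKM in mitosis there were 28 genes, and no gene had 20 RPKM or more in mitosis and under 1 RPKM at 3 h. These limits were set after the values were seen. Of the 28, 27 encode proteins, 23 are in a list described above and 4 have a systematic ID only. Hop1 led the set, followed by meu26, rec27 and mug55, a meiotic activator of the anaphase-promoting complex with 118 RPKM at 3 h and 0.212 RPKM in mitosis. Mug28, an RNA-binding protein, was at 86.7 RPKM at 3 h and 0.738 RPKM in mitosis. The kinase gene mug27 was at 57.9 RPKM at 3 h and 0.321 RPKM in mitosis. At 0 h 11 of the 28 were already at 20 RPKM or more and none was under 1, so none was as silent at the start of meiosis as in mitosis. There were 3 genes that had 20 RPKM or more in mitosis and under 5 at 3 h: adg1, cat1 and SPCC330.07c, a transporter by its annotation.

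Of the 1410 genes in the table with a systematic ID only, 86 were higher and 28 lower, beside 7.64% higher and 1.65% lower over all genes. No trait of unnamed genes is drawn from these counts. SPAC27D7.11c, annotated as a But2 family protein, was the most abundant of the unnamed rises given here, at 1455 RPKM at 3 h and 42.1 RPKM in mitosis. SPCC1739.08c, annotated as a dehydrogenase, was at 84.4 RPKM at 3 h and 0.610 RPKM in mitosis. SPAC6C3.05, whose product is named meu43, was at 98.5 RPKM at 3 h and 1.99 RPKM in mitosis, and SPAPB17E12.09 and the transporter gene SPCC794.04c were higher by 4.78 and 4.64. Among falls SPAPB24D3.07c was at 20.6 RPKM at 3 h and 233 RPKM in mitosis. SPBPB8B6.05c, annotated as an L-asparaginase, was at 25.4 RPKM at 3 h and 181 RPKM in mitosis. SPCC306.11, the sorbose reductase gene SPAC8E11.10 and SPBCPT2R1.06c had differences of -3.03, -2.96 and -2.87.

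Near the ends of chromosomes I and II, among the 30 outermost protein-coding genes of each end, 118 were in the table and 68 were measured. Of the 118, 7 were higher (5.93%) and 9 lower (7.63%), beside 7.64% higher and 1.65% lower over all genes. Genes that were not measured could not be called, and they were a larger part of the end genes than of all genes. Among measured genes, 7 of 68 at the ends were higher and 9 lower, beside 394 and 85 of 5049. On that base the higher share at the ends was not below that of all genes. After rescaling 7 were higher and 14 lower, beside 5.37% and 3.41% over all genes, or 277 and 176 of the 5049 measured. The lower ones included 2 genes annotated as L-asparaginases, SPAC977.12 and SPBPB8B6.05c, and the amino acid transporter genes cat1 and put4. The higher ones included ght3, ght7, pho1 and dak2, a dihydroxyacetone kinase at 285 RPKM at 3 h and 31.6 RPKM in mitosis. Genes at these ends share repeats, so that reads may be split between copies.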
